A study of Homo sapiens with 15 samples.

Results

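The 33 genes described here are hosts of small nucleolar RNAs (snoRNAs), short RNAs that sit in introns of longer transcripts and guide chemical changes of ribosomal and other RNAs. They were taken by name: each gene whose symbol is SNHG (small nucleolar RNA host gene) with a number, and GAS5, ZFAS1, DANCR, TAF1D, RACK1 and EEF1B2, wherever the symbol stood in both tables of counts. This gave 33 of the 35595 genes that the tables share, of which 30 are annotated as long noncoding RNAs and 3 (TAF1D, RACK1 and EEF1B2) as protein-coding. Total RNA, depleted of ribosomal RNA, had been sequenced from 15 libraries of 2 established human lines, HEK293T, an embryonic kidney line that carries a viral large T antigen, and HuCCT1, a line of cholangiocarcinoma, the cancer of the bile duct. HEK293T was sequenced as SNRPD2KO, PUS7KO and Ctrl and HuCCT1 as SNRPD2KO and Ctrl, with 3 libraries in every group, where KO is a knockout by CRISPR-Cas9 and Ctrl the control. The protein of SNRPD2 is SMD2, which sits in the Sm ring of the spliceosome's small nuclear RNAs, and PUS7 is an enzyme that makes pseudouridine from uridine in RNA. The study's question was how SMD2 and pseudouridine act together in splicing and in tumour cells. The labels state neither guides nor clones, nor whether the 3 libraries of a group came from separate cultures, so the p-values measure only the spread between these libraries, which may be technical.

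A host gene is transcribed as 1 precursor, and the snoRNA is cut from its intron after splicing while the joined exons leave as a separate RNA. In most SNHG genes the exons encode no known protein. Several of these spliced RNAs, GAS5 among them, are known targets of nonsense-mediated decay (NMD), the pathway that destroys translated RNAs with an early stop. Many hosts also belong to the 5′ TOP class, whose transcripts start with a C followed by a run of pyrimidines and whose translation follows growth signals. The snoRNAs fall into box C/D RNAs (SNORD), which guide methylation of ribose, and box H/ACA RNAs (SNORA), which guide pseudouridylation, with scaRNAs as their relatives of the Cajal body. A total RNA library can therefore hold reads of a host and of its snoRNAs, and the abundance of one need not follow that of the other.

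The start sites show the sequence class to which part of these genes belong. RefSeq start sites (build GRCh38.p14, promoter windows of 250 bases before and 50 after the start) were found for 29 members, and 10 of them (34.5%) had a C at the start followed by at least 4 pyrimidines (each C or T; read on the gene's own strand). Of all 35116 promoter entries 4.07% had this. The windows below hold the 10 bases before the start and the 20 from it, and capitals mark the unbroken pyrimidine run that begins at the start. They are shown for 6 members whose levels are described in detail, followed by 3 that lack the full run.
SNHG12 (chr1:28581854-28581883, minus strand): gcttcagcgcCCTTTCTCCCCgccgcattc
TAF1D (chr11:93741476-93741505, minus strand): aatagccaacCCTTTTCTTCCgcacggttg
SNHG4 (chr5:139274091-139274120, plus strand): ctcccggctgCCCTTTCCCCTCCggcctct
RACK1 (chr5:181243887-181243916, minus strand): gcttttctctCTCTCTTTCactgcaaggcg
SNHG5 (chr6:85678714-85678743, minus strand): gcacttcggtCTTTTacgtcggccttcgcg
ZFAS1 (chr20:49278632-49278661, plus strand): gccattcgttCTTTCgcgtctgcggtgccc
SNHG1 (chr11:62855866-62855895, minus strand): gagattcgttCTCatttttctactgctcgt
SNHG8 (chr4:118278752-118278781, plus strand): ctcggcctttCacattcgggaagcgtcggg
SNHG17 (chr20:38435309-38435338, minus strand): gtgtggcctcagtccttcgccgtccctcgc
The other 4 members with the run were EEF1B2, at the second of its 2 start sites, SNHG18, SNHG19 and SNHG32. In HEK293T members with the run were called in both directions. Of the 8 tested members that have it, 2 were higher and 3 lower in SNRPD2KO against Ctrl. In PUS7KO 3 were higher and 3 lower. Of all genes tested 26.9% were higher and 26.4% lower in SNRPD2KO, and 25.6% and 23.8% in PUS7KO. In HuCCT1, 7 of 9 tested members with the run and 14 of 15 without it were lower in SNRPD2KO. There 28.4% of all genes were lower. EEF1B2 is among the 7, and its call rested on Ctrl replicate 1. A match describes these letters and is no evidence of how a transcript is translated.

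Of the snoRNAs inside the members, 5 are shown because their levels are set against those of their hosts further on. Sequences are those of GENCODE release 29 (build GRCh38). Capitals mark the C box as TGATGA within the first 20 bases and the D box as CTGA that starts within the last 15 bases of a box C/D RNA, and ACA that starts within the last 8 bases of a box H/ACA RNA, searched on the RNA's own strand. Of 288 annotated SNORD transcripts 66.7% and 91.3% hold the C and the D box in this form, and 89.9% of 149 SNORA transcripts hold the ACA.
SNORD96A (in RACK1, chr5:181241814-181241892, minus strand): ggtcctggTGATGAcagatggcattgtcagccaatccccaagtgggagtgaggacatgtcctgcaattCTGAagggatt
SNORA61 (in SNHG12, chr1:28579764-28579893, minus strand): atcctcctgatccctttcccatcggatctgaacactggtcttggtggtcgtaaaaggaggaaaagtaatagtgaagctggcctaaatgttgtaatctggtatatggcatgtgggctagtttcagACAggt
SNORD26 (in SNHG1, chr11:62855292-62855366, minus strand): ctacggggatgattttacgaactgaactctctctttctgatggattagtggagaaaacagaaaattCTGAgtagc
SNORD5 (in TAF1D, chr11:93733228-93733300, minus strand): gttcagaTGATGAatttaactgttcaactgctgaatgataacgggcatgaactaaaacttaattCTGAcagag
SNORD12B (in ZFAS1, chr20:49280319-49280409, plus strand): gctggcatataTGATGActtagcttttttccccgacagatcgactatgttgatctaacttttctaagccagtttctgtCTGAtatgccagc
SNORD26 lacks the exact C box letters in this window.

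Total counts ran from 7944276 to 11270267 in the HEK293T libraries and from 13776166 to 16795618 in the HuCCT1 libraries. Small noncoding RNAs took 28.2% to 35.7% of the counts in HEK293T and 2.19% to 4.11% in HuCCT1, and the members took 0.583% to 0.709% and 0.304% to 0.478%. Levels are in CPM, each gene's count relative to its library's total after scaling by edgeR's TMM factor, and a count of 0 allows up to 3 counts, equal to 0.250 to 0.343 CPM in HEK293T and 0.172 to 0.224 CPM in HuCCT1 (counting error only). The bile duct keratins KRT7 and KRT19 were at most 0.114 CPM in every HEK293T library and at least 1864 CPM in every HuCCT1 library, while the neurofilament genes NEFL and NEFM, which HEK293T is known to express, were at least 16.0 CPM in HEK293T and at most 0.366 CPM in HuCCT1, as INA was (at least 14.8 and at most 0.0573 CPM). Of the other HEK293T markers VIM was in both lines (548 to 850.1 and 163 to 199 CPM), LIN28B was read in HEK293T alone (34.9 to 70.6 CPM), and CDH2 was lower in HEK293T (66.0 to 94.6 CPM) than in HuCCT1 (168 to 204 CPM). PUS7 RNA was lower in the libraries labelled PUS7KO (13.7, 18.1 and 16.3 CPM against 26.5, 26.0 and 27.0 CPM in Ctrl). SNRPD2 RNA went against its label: it was higher in the libraries labelled SNRPD2KO than in Ctrl, by a log2 fold change of 0.62 in HEK293T (SE 0.10, adjusted p = 4.9e-05) and 0.90 in HuCCT1 (SE 0.07, adjusted p = 1.8e-06), and it was also higher in PUS7KO (0.52, adjusted p = 0.00034). Each direction given for SNRPD2KO is therefore that of the libraries labelled so. Both HEK293T knockout groups were set against the same 3 Ctrl libraries. In HEK293T the fold change also moved with the GC content of a gene's longest transcript, with a Spearman correlation across genes, which are not independent replicates, of 0.36 for SNRPD2KO and 0.18 for PUS7KO against Ctrl and of 0.49 for SNRPD2KO against PUS7KO. It was -0.02 in HuCCT1 and -0.24 for the difference between the lines.

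The most abundant member was RACK1, whose protein is a scaffold on the small ribosomal subunit. Per kilobase of annotated exon it reached 492 CPM in HEK293T Ctrl and 228 CPM in HuCCT1 Ctrl, as group means. In HEK293T Ctrl it was followed by GAS5 (179 CPM per kilobase), EEF1B2 (113), SNHG29 (85.6) and SNHG6 (83.9). In HuCCT1 Ctrl ZFAS1 (144), SNHG29 (134), SNHG1 (112) and GAS5 (108) came next. SNHG18 and SNHG9 had no count in any of the 9 HEK293T libraries, while SNHG18 ran from 10.5 to 13.1 CPM in HuCCT1 Ctrl. SNHG22, SNHG28, SNHG31 and SNHG32 passed the filter on low counts in neither line, with at most 0.918 CPM in any library. SNHG14, the long transcript of the imprinted 15q11-q13 region, passed in HEK293T only. The tests thus covered 27 members in HEK293T and 28 in HuCCT1.

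In HEK293T, some host genes were higher and others lower in SNRPD2KO than in Ctrl. SNHG12, TAF1D, SNHG1, SNHG4 and SNHG17 fell, and SNHG30, SNHG20, RACK1 and SNHG8 rose, with fold changes of 3.05 down to 1.39 among the first and 1.98 to 1.49 among the second. In all, 6 members were higher and 8 lower out of 27, or 51.9%, where 53.3% of all 15882 genes tested were called (26.9% higher and 26.4% lower), so the share called lay near that of all genes. A called change over 2-fold was seen in 3 members (SNHG14, SNHG12 and TAF1D), where 17.5% of all genes had one. SNHG14 passed the filter on low counts through the Ctrl libraries alone, where it was high, so its lower call was favoured by the filter. Without it 13 of 26 members were called (50%), 7 of them lower and 2 over 2-fold. The median log2 fold change of the members was -0.05, against 0.02 over all genes. For 14 members the 3 libraries of one group lay wholly above those of the other, where 59.5% of all genes did so. With a trend on GC content removed from the counts, DANCR, SNHG11, SNHG19 and ZFAS1 were called lower as well. The share of all genes called in that fit is not given here.

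SNHG12, a host of H/ACA RNAs on chromosome 1 (28578538 to 28583132, build hg38, minus strand), stood at 16.3, 17.6 and 19.0 CPM in SNRPD2KO and at 49.0, 51.8 and 61.1 CPM in Ctrl. Every SNRPD2KO library lay below every Ctrl library, and the log2 fold change was -1.61 (SE 0.11, adjusted p = 1.2e-08). SNHG1, on chromosome 11 with 7 box C/D RNAs matched inside it, fell from 227, 228 and 263 CPM in Ctrl to 132, 124 and 118 CPM (-0.94, SE 0.08, adjusted p = 1.5e-07). TAF1D encodes a subunit of the SL1 complex that starts transcription by RNA polymerase I, and its introns hold 8 annotated snoRNAs. It fell from 31.3, 34.7 and 37.3 CPM to 14.1, 14.6 and 18.9 CPM, with no overlap between the groups (-1.11, SE 0.13, adjusted p = 2.3e-06). TAF1D also has the lowest GC content of the tested members, 36.5%, and with a trend on GC content removed from the counts its log2 fold change was -0.58 (adjusted p = 0.00027). SNHG4, which lies on the strand of MATR3 and overlaps it, was at most 23.9 CPM in any SNRPD2KO library and at least 31.9 CPM in any Ctrl library (-0.62, adjusted p = 0.00015), so these groups did not overlap either. SNHG17, a host of SNORA71 RNAs, was at 82.3, 75.3 and 79.3 CPM against 114, 102 and 113 CPM (-0.47, adjusted p = 0.00025).

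Among the members that rose in HEK293T SNRPD2KO, SNHG30 had 45.3, 53.6 and 45.8 CPM against 26.3, 25.5 and 21.3 CPM in Ctrl, a log2 fold change of 0.98 (SE 0.11, adjusted p = 1.2e-06). RACK1 had 4688, 4863 and 4146 CPM against 3078, 2789.5 and 2977 CPM (0.63, SE 0.09, adjusted p = 1.3e-05). SNHG8, the host of SNORA24, had 75.5, 83.3 and 78.8 CPM against 49.5, 46.6 and 63.0 CPM (0.58, SE 0.11, adjusted p = 0.00025). In none of these 3 genes did the groups overlap. SNHG20, the host of SCARNA16, overlaps SEC14L1 on the same strand, so reads of the genes may be shared. It had 14.6, 15.9 and 11.7 CPM against 9.22, 7.76 and 8.86 CPM (0.70, SE 0.15, adjusted p = 0.0011), also with no overlap.

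SNHG6 also fell, and its call was kept under every alternative run. It was at 84.8, 80.8 and 76.9 CPM against 109, 102 and 102 CPM (-0.37, adjusted p = 0.00075), and at -0.21 (adjusted p = 0.031) with the GC trend removed. The calls of GAS5, SNHG5 and SNHG7 were each lost without at least 1 library. GAS5 had 807, 776 and 708 CPM against 681, 612 and 653 CPM (0.24, adjusted p = 0.030). Its groups did not overlap, but the adjusted p was 0.10 without Ctrl replicate 2, 0.090 without SNRPD2KO replicate 1 and 0.062 without SNRPD2KO replicate 2, and the log2 fold change was 0.38 with the GC trend removed. SNHG5 had 225, 225 and 199.6 CPM against 160.5, 165 and 203 CPM, so its groups overlapped (0.30, adjusted p = 0.012, and 0.072 and 0.056 without Ctrl replicates 1 and 2). SNHG7, with 61.9, 59.4 and 53.6 CPM against 68.1, 72.8 and 63.3 CPM, was lower by the least (-0.23, adjusted p = 0.045). Its adjusted p was 0.073 and 0.21 without Ctrl replicates 1 and 2, and 0.057, 0.10 and 0.21 without SNRPD2KO replicates 1, 2 and 3, while the log2 fold change was -0.64 with the GC trend removed. ZFAS1 did not pass (0.04, adjusted p = 0.75), though with the GC trend removed it was at -0.20 (adjusted p = 0.030). With no filter on low counts SNHG7 did not pass (adjusted p = 0.34), and with a minimum count of 30 GAS5 did not (0.053). SNHG14 had 3, 0 and 4 counts against 18, 8 and 17 counts. With 0 of 6 knockout libraries and 3 of 3 Ctrl libraries at the filter's minimum, its estimate (-2.72, SE 0.59, adjusted p = 0.00099) is given as a value only.

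**Figure D1:**
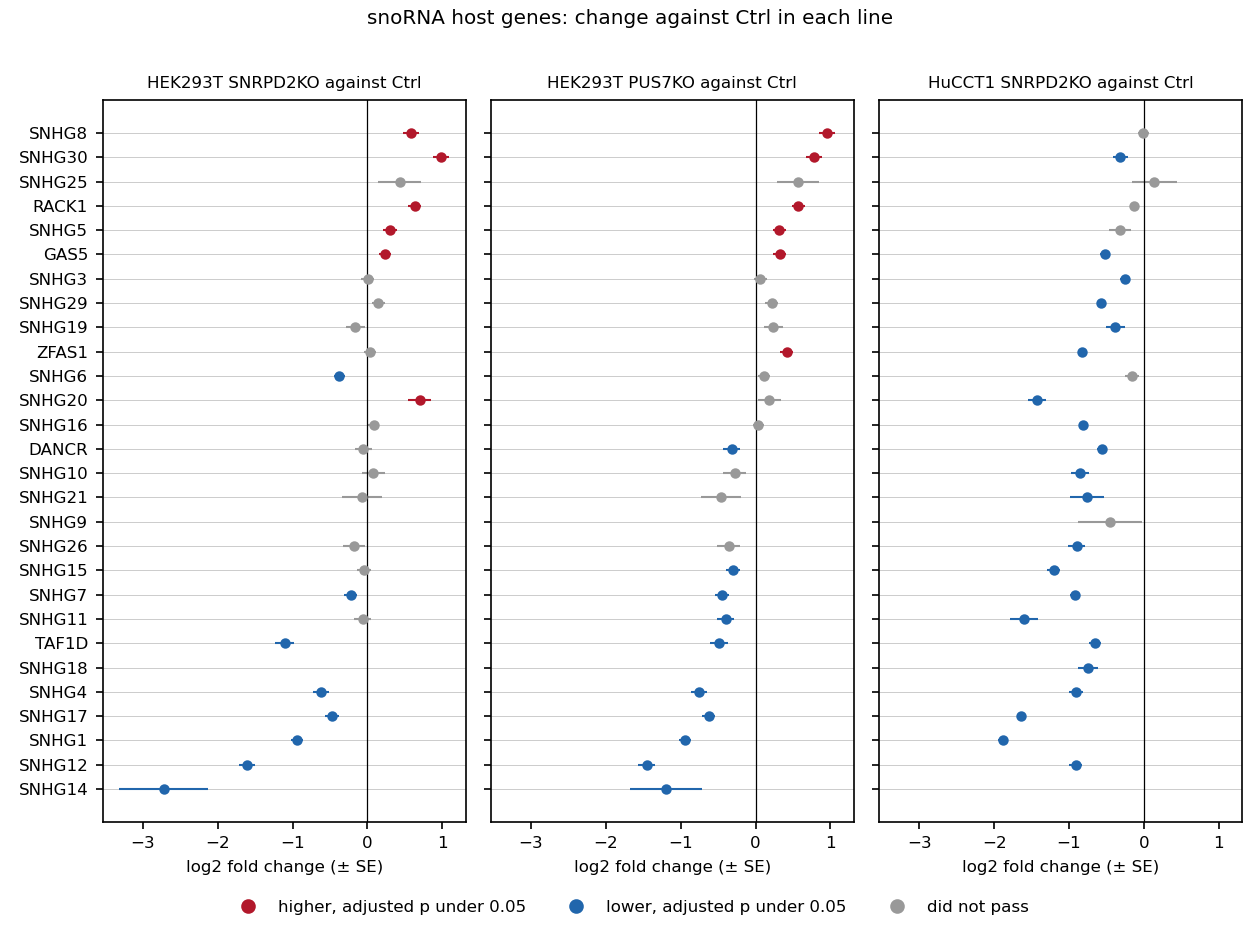
Log2 fold change against Ctrl of 28 tested snoRNA host genes (rows) in 3 comparisons (panels); points are estimates, bars are standard errors, and colour gives the call at an adjusted p under 0.05. EEF1B2 is left out for its spread between libraries; HEK293T has called members on both sides of 0, and in HuCCT1 the called members all lie below 0.

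In the libraries labelled PUS7KO, set against the same Ctrl libraries, SNHG12, SNHG1, SNHG4 and SNHG17 fell and SNHG8, SNHG30, RACK1 and ZFAS1 rose. Of 27 members 6 were higher and 10 lower, or 59.3%, where 49.4% of all genes were called (25.6% higher and 23.8% lower), and 2 members (SNHG12 and SNHG14) changed over 2-fold, where 14.6% of all genes did. Without SNHG14, which the filter kept through Ctrl alone, these were 15 of 26 members (57.7%), 9 of them lower and 1 over 2-fold. The median was -0.28 against 0.01 over all genes, and 18 members had groups that did not overlap, where 57.2% of all genes had.

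SNHG12 was at 19.4, 18.5 and 21.1 CPM in PUS7KO, below all 3 Ctrl libraries (-1.46, SE 0.11, adjusted p = 4.1e-08). SNHG1 was at 128, 118 and 127 CPM (-0.94, SE 0.08, adjusted p = 2e-07). SNHG4 had 18.3, 20.9 and 21.2 CPM (-0.76, adjusted p = 2.7e-05) and SNHG17 had 70.8, 64.5 and 78.3 CPM (-0.62, adjusted p = 2.2e-05). In each of these genes the lowest Ctrl library stood above the highest PUS7KO library. TAF1D, at 26.6, 24.8 and 22.2 CPM, was lower as well (-0.49, adjusted p = 0.0034, and -0.28 with adjusted p = 0.031 when the GC trend was removed). SNHG7 had 53.6, 49.4 and 46.9 CPM (-0.45, adjusted p = 0.00067).

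SNHG8 rose the most, to 108, 92.3 and 107 CPM, above all Ctrl libraries (0.95, SE 0.11, adjusted p = 2.2e-06). SNHG30 was at 43.6, 39.7 and 42.7 CPM (0.79, SE 0.11, adjusted p = 1.6e-05) and RACK1 at 4566, 3985 and 4566 CPM (0.57, SE 0.09, adjusted p = 4.6e-05). ZFAS1, the antisense neighbour of the ZNFX1 promoter, had 157, 137 and 165 CPM against 111, 117 and 115 CPM in Ctrl (0.41, SE 0.08, adjusted p = 0.00073). GAS5 had 835, 729 and 873 CPM (0.32, adjusted p = 0.0051). These 5 genes had no overlap with Ctrl.

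The remaining PUS7KO calls were each lost without at least 1 library. SNHG5, at 223, 215 and 221 CPM, was higher (0.32, adjusted p = 0.009, and 0.053 without Ctrl replicate 1). SNHG11 had 17.3, 13.8 and 16.2 CPM against 21.2, 21.5 and 19.7 CPM (-0.40, adjusted p = 0.0088, and 0.063 without PUS7KO replicate 2). SNHG15 had 64.3, 61.8 and 67.4 CPM against 76.1, 78.3 and 83.9 CPM (-0.30, adjusted p = 0.01, and 0.051 without Ctrl replicate 3). DANCR had 31.6, 25.0 and 26.5 CPM against 36.7, 35.4 and 31.6 CPM. Its highest PUS7KO library reached the lowest Ctrl library, and its call (-0.32, adjusted p = 0.023) was lost without Ctrl replicate 1 (0.075), Ctrl replicate 2 (0.073), PUS7KO replicate 2 (0.11) or PUS7KO replicate 3 (0.090). SNHG14 stood at 5, 9 and 8 counts, all under the filter's minimum (-1.20, adjusted p = 0.047). It did not pass without Ctrl replicate 1 or 3 (0.15 each) or without PUS7KO replicate 1 (0.17), 2 (0.091) or 3 (0.076), nor with DESeq2 (0.095), limma voom (0.067) or the replicate number as a block (0.069). With no filter on low counts DANCR (0.16), SNHG11 (0.092), SNHG14 (0.095) and SNHG15 (0.12) did not pass.

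Set directly against each other, the 2 HEK293T knockout groups differed in few host genes: TAF1D, SNHG6 and ZFAS1 were lower in SNRPD2KO than in PUS7KO. These are 3 of 27 members, or 11.1%, where 4.77% of all genes were called (1.57% higher and 3.2% lower). A called change over 2-fold was seen in 0 members and in 0.34% of all genes, and 10 members had groups that did not overlap, where 25.2% of all genes had. The median was 0.05 against 0.01 over all genes. No member was higher by edgeR at the adjusted threshold, while 6 were higher at an unadjusted p under 0.05 and 0 were by DESeq2 or limma voom. SNHG6, at 84.8, 80.8 and 76.9 CPM in SNRPD2KO and 117, 114 and 108 CPM in PUS7KO, did not overlap (-0.49, SE 0.08, adjusted p = 0.0083, and 0.059 without SNRPD2KO replicate 2). TAF1D had a log2 fold change of -0.62 (SE 0.13, adjusted p = 0.019). That call was lost without SNRPD2KO replicate 1 (0.12) or 2 (0.11) or PUS7KO replicate 1 (0.060) or 2 (0.087), and with the GC trend removed (-0.30, adjusted p = 0.18), where SNHG19 passed instead (-0.52, adjusted p = 0.046). ZFAS1 was at -0.38 (SE 0.08, adjusted p = 0.025), which was lost without SNRPD2KO replicate 1 (0.10) or 2 (0.14) or PUS7KO replicate 1 (0.069) or 3 (0.067). SNHG8 (-0.37, adjusted p = 0.050) and SNHG20 (0.52, adjusted p = 0.056) did not pass, though SNHG20 did without SNRPD2KO replicate 3 (0.014). SNHG8 passed with DESeq2 (0.023), limma voom (0.046), a minimum count of 30 (0.044) and no filter on low counts (0.0056). It also passed with only the 2 groups in the fit (0.042), small RNAs left out (0.044) and upper quartile factors (0.047). Leaving out 1 library at a time, the number of members called ran from 0 without SNRPD2KO replicate 2 to 5 without SNRPD2KO replicate 3, with 1 left without SNRPD2KO replicate 1 or PUS7KO replicate 1.

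In HuCCT1 the host genes moved mostly one way: 22 of 28 members were lower in SNRPD2KO than in Ctrl. SNHG1, SNHG17, SNHG11, SNHG20 and SNHG15 fell by 3.68-, 3.10-, 3.04-, 2.69- and 2.31-fold. The 22 lower members were 78.6% of those tested, where 57.2% of all 15007 genes were called, 28.4% of them lower and 28.8% higher. No member was higher by edgeR, and 0 were at an unadjusted p under 0.05 or by DESeq2 or limma voom. The median log2 fold change was -0.75 against 0.00 over all genes. For 23 members the groups did not overlap, where 63.5% of all genes did so, and 6 were called with a change over 2-fold, EEF1B2 among them, where 14.7% of all genes were.

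SNHG1 stood at 118, 104 and 122 CPM in SNRPD2KO and at 420.3, 413 and 432 CPM in Ctrl (-1.88, SE 0.07, adjusted p = 6.6e-09). SNHG17 stood at 66.7, 64.9 and 66.2 CPM against 207, 208 and 199 CPM (-1.63, SE 0.05, adjusted p = 3.6e-09). The libraries of each group lay close together and the groups lay far apart. SNHG11 was at 5.28, 3.74 and 4.83 CPM against 13.3, 17.6 and 11.1 CPM (-1.60, SE 0.19, adjusted p = 3.2e-05). SNHG20 was at 7.45, 7.36 and 5.85 CPM against 17.6, 19.4 and 18.8 CPM (-1.43, SE 0.12, adjusted p = 1.9e-06), and SNHG15, the host of SNORA9, at 22.2, 25.7 and 27.9 CPM against 58.1, 54.2 and 62.5 CPM (-1.21, SE 0.09, adjusted p = 9.1e-07). In SNHG20 and SNHG11, as in SNHG15, all Ctrl libraries were above all SNRPD2KO libraries.

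A second tier of 7 genes fell by 1.90- to 1.75-fold. SNHG7 had 33.3, 36.1 and 34.0 CPM against 67.0, 65.9 and 63.1 CPM (-0.92, adjusted p = 3.9e-07), and SNHG12 had 18.3, 16.1 and 18.8 CPM against 33.8, 32.1 and 33.9 CPM (-0.91, adjusted p = 5.1e-06). ZFAS1 had 174, 187 and 185 CPM against 321, 320.2 and 327 CPM (-0.82, adjusted p = 2.2e-07), and SNHG16, host of SNORD1 RNAs, had 217, 215 and 225 CPM against 367, 382 and 400.1 CPM (-0.81, adjusted p = 3.2e-07). SNHG4 (-0.91), SNHG26 (-0.90) and SNHG10 (-0.85) fell by like amounts. None of these 7 genes had overlapping groups.

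TAF1D was at 33.6, 28.2 and 28.8 CPM against 49.0, 47.0 and 46.8 CPM (-0.66, SE 0.08, adjusted p = 3.3e-05). GAS5, at 267, 256 and 295 CPM against 386, 373 and 414 CPM, fell by 0.52 on the log2 scale (SE 0.06, adjusted p = 4.2e-05). DANCR had 52.9, 48.6 and 57.2 CPM against 75.3, 77.2 and 81.2 CPM (-0.56, adjusted p = 4.7e-05). In these 3 genes the groups did not overlap. SNHG29 (-0.58), SNHG18 (-0.75) and SNHG3 (-0.26, adjusted p = 0.0048), which lies on the strand of RCC1 and overlaps it, were lower too. Calls with less margin were SNHG30 (-0.31, adjusted p = 0.020), lost without Ctrl replicate 2 (0.056), SNRPD2KO replicate 2 (0.080) or SNRPD2KO replicate 3 (0.091); SNHG19 (-0.38, adjusted p = 0.020), at -0.24 (0.096) without Ctrl replicate 1 and lost without SNRPD2KO replicate 2 (0.084); and SNHG21 (-0.76, adjusted p = 0.015), lost without Ctrl replicate 2 (0.067).

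The 6 tested members that did not pass in HuCCT1 were RACK1, SNHG5, SNHG6, SNHG8, SNHG9 and SNHG25. RACK1 had 1243, 1155 and 1354 CPM against 1371, 1307 and 1419.6 CPM (-0.13, SE 0.06, adjusted p = 0.10), with groups that overlapped, and passed without SNRPD2KO replicate 3 (-0.17, 0.029). SNHG8 had 44.8, 52.4 and 53.8 CPM against 50.6, 51.9 and 49.1 CPM (-0.01, SE 0.08, adjusted p = 0.95). SNHG5 had 117, 187 and 188 CPM against 217, 195 and 201 CPM, with no overlap but with 1 library far below the other 5 (-0.32, adjusted p = 0.082). Without that library, SNRPD2KO replicate 1, the log2 fold change was -0.12 (0.10), while SNHG5 passed without SNRPD2KO replicate 2 (0.050) or 3 (0.042), and with the replicate number as a block (0.049). SNHG6 (-0.16, adjusted p = 0.17) passed without SNRPD2KO replicate 3 (-0.24, 0.035).

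**Figure D2:**
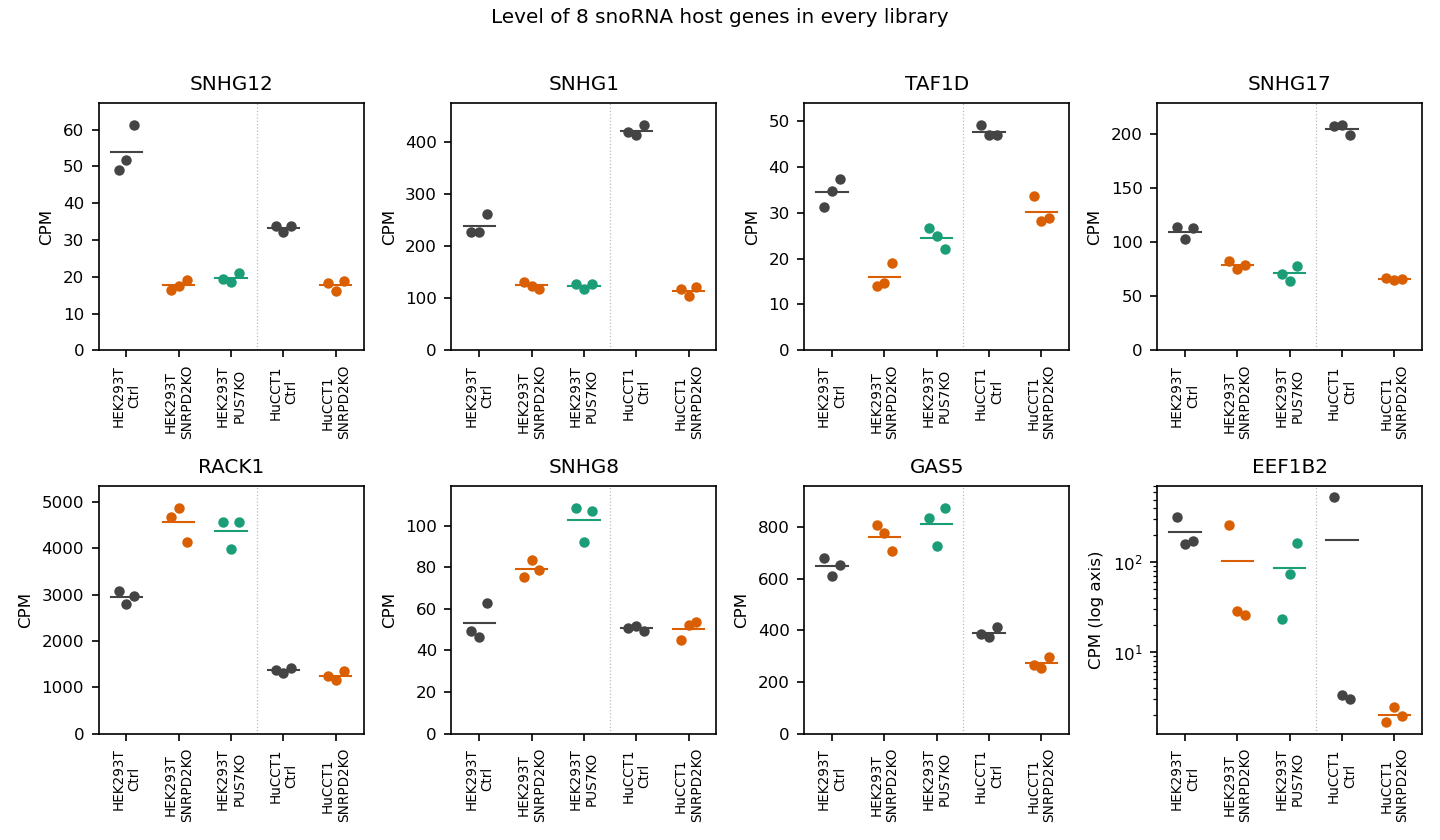
CPM of 8 snoRNA host genes (1 panel each) in every library, by group along the x axis; points are libraries, short lines are group means over 3 libraries, and the axis starts at 0 except for EEF1B2, which has a log axis. SNHG12 and SNHG1 lie below Ctrl in both lines, RACK1 and SNHG8 lie above it in both HEK293T knockout groups and overlap it in HuCCT1, and EEF1B2 spans 2.99 to 531 CPM within HuCCT1 Ctrl.

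EEF1B2, which encodes the exchange factor subunit of the elongation factor that delivers tRNAs to the ribosome, varied widely between libraries within some groups. Its counts were 2419, 259 and 304 in HEK293T SNRPD2KO, 243, 884 and 1587 in PUS7KO, and 2989, 1403 and 1505 in Ctrl. In HuCCT1 they were 29, 41 and 31 in SNRPD2KO and 8358, 55 and 40 in Ctrl. The highest library was thus 10.0 times the lowest within HEK293T SNRPD2KO, a ratio that 0.189% of tested genes reached there, and 177 times within HuCCT1 Ctrl, which 0.00666% reached. Its level is therefore uncertain. The processed copy EEF1B2P3 held 440 to 696 counts across the 9 HEK293T libraries and 199 to 312 in HuCCT1. In HuCCT1 Ctrl the copy was at 283, 312 and 237 counts, so it did not vary as the parent gene did. In HEK293T neither comparison passed in the main edgeR fit (-1.06, adjusted p = 0.20, and -1.32, adjusted p = 0.12), though limma voom called both (-1.88, adjusted p = 0.022, and -1.67, adjusted p = 0.038). With no filter on low counts edgeR called both as well (-0.99, adjusted p = 3.9e-24, and -1.23, adjusted p = 8.4e-37). With only the 2 groups in the fit edgeR also called PUS7KO (-1.32, adjusted p = 0.020). SNRPD2KO reached -2.98 (adjusted p = 0.00025) without its replicate 1 and PUS7KO -2.14 (adjusted p = 0.027) without its replicate 3. The HuCCT1 call (-6.47, SE 1.80, adjusted p = 0.0097) rested on Ctrl replicate 1, and without it the log2 fold change was -0.65 (adjusted p = 0.062). With limma voom it was -3.20 (adjusted p = 0.37).

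Whether the SNRPD2KO libraries differed from Ctrl by the same amount in both lines was tested with an interaction term, fitted to the 12 libraries of these groups. The difference, HuCCT1 minus HEK293T in log2 fold change, was called for 22 of 27 members, where 40.7% of all 17617 genes were called. It was lower in HuCCT1 for 19 and higher for 3, against 20.9% and 19.8% of all genes, and its median was -0.76 against -0.01. The 17617 genes include those that passed the joint filter through 1 line alone, while 12708 genes were tested in each line's own fit. SNHG18 and SNHG9, with no count in HEK293T, were left out of the members. The shares of members and of all genes are therefore of unlike sets, and the share among genes read in both lines is not given here. The lines also differ in their table, depth and share of small RNAs, which cannot be told apart from the line.

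Outside EEF1B2, the largest difference toward lower in HuCCT1 was that of SNHG20, higher in HEK293T SNRPD2KO and lower in HuCCT1 SNRPD2KO, at -2.17 (SE 0.21, adjusted p = 2.9e-07). SNHG30 (-1.34, SE 0.15, adjusted p = 1.8e-06) and GAS5 (-0.80, SE 0.11, adjusted p = 1.2e-05) also passed in both lines with opposite signs. SNHG11 (-1.59), SNHG15 (-1.21), SNHG16 (-0.93), SNHG10 (-0.98) and ZFAS1 (-0.90) were lower in HuCCT1 and did not pass in HEK293T, and the interaction passed for each of them. SNHG1 and SNHG17, lower in both lines, were lower by more in HuCCT1 (-0.98, adjusted p = 1.6e-06, and -1.21, adjusted p = 3.4e-08). RACK1 (-0.80, adjusted p = 2.8e-05), SNHG8 (-0.63, adjusted p = 0.0015) and SNHG5 (-0.66, adjusted p = 0.0095) were higher in HEK293T alone by their own tests, and the difference between lines passed in all 3. SNHG12 went the other way, with the larger fall in HEK293T (0.66, SE 0.14, adjusted p = 0.0012).

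Of the 26 members tested in both lines, 6 (23.1%) were lower in each, where 11.6% of the 12708 genes tested in both were: SNHG1, SNHG4, SNHG7, SNHG12, SNHG17 and TAF1D. A further 3 (11.5%, beside 5.54% of all genes), GAS5, SNHG20 and SNHG30, were higher in HEK293T and lower in HuCCT1. In 12 members (46.2%, beside 12.7% of all genes) the call was lower in HuCCT1 and did not pass in HEK293T. With the GC trend removed SNHG11 (-0.30), DANCR (-0.26), SNHG19 (-0.41) and ZFAS1 (-0.20) of these 12 passed as lower in HEK293T too. RACK1, SNHG5 and SNHG8 were higher and SNHG6 lower in HEK293T and did not pass in HuCCT1, and SNHG25 passed in neither. The interaction calls of SNHG14, SNHG3, TAF1D and EEF1B2 were each lost without at least 1 library. For TAF1D (0.40, adjusted p = 0.048) the sign turned with the GC trend removed (-0.31, adjusted p = 0.062), and the adjusted p lay between 0.061 and 0.18 without HEK293T Ctrl replicate 2 or 3, HEK293T SNRPD2KO replicate 1 or 2, any HuCCT1 Ctrl replicate or HuCCT1 SNRPD2KO replicate 1. TAF1D also missed the threshold with RLE factors (0.059), DESeq2 (0.069), limma voom (0.055) and no filter (0.18). For SNHG3 (-0.30, adjusted p = 0.027) it was 0.065 without HEK293T Ctrl replicate 3, 0.056 without HuCCT1 Ctrl replicate 1, and 0.064 and 0.051 without HuCCT1 SNRPD2KO replicates 1 and 2. For SNHG14 (2.83, adjusted p = 0.026), kept by the filter through HEK293T Ctrl alone, it was 0.057 and 0.058 without HEK293T Ctrl replicates 1 and 3, 0.068 without HEK293T SNRPD2KO replicate 2, 0.056 without HuCCT1 Ctrl replicate 1 and 0.11 without HuCCT1 SNRPD2KO replicate 1. EEF1B2 (-5.45, adjusted p = 0.036) was at 0.36 (adjusted p = 0.88) without HuCCT1 Ctrl replicate 1, and at -3.54 (0.18) without HEK293T SNRPD2KO replicate 1. The EEF1B2 call was also lost with limma voom (0.74) and with a replicate block (0.059), and without HEK293T Ctrl replicate 2 (0.068) or 3 (0.065) and without HuCCT1 SNRPD2KO replicate 1 (0.072), 2 (0.067) or 3 (0.064).

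**Figure D3:**
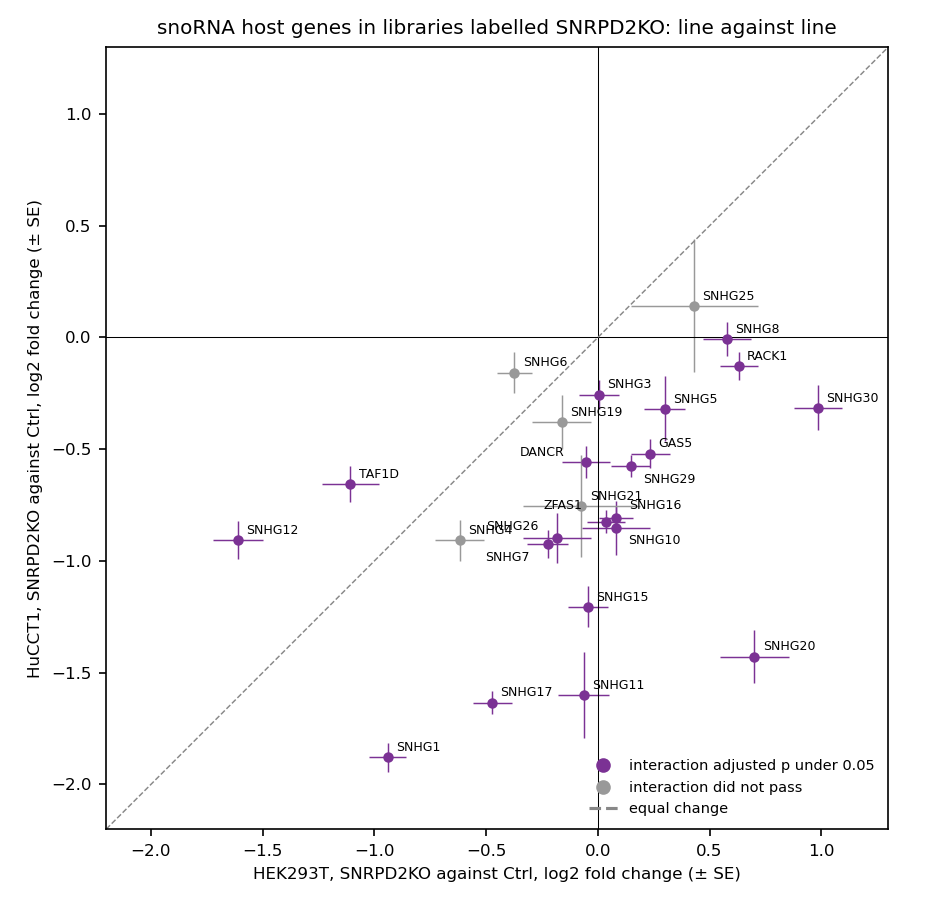
Log2 fold change of SNRPD2KO against Ctrl in HEK293T (x axis) and HuCCT1 (y axis) for 25 snoRNA host genes tested in both lines, EEF1B2 left out; bars are standard errors, the dashed line marks equal change, and colour marks an interaction at an adjusted p under 0.05. Most members lie below the dashed line, SNHG6, SNHG12 and TAF1D lie above it, and SNHG20 lies farthest below.

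The hosted RNAs were read from the same tables. On the strand of a member and inside it lay 150 annotated snoRNAs and scaRNAs, 84 of them in SNHG14 and none matched in GAS5 or SNHG28. The lack of a match is no evidence that GAS5 or SNHG28 hosts none. Of the 150, 32 passed the filter in HEK293T, from 16 hosts, and 27 in HuCCT1, from 14 hosts. Reads of host and snoRNA may be counted together where the annotated exons of a host run over the snoRNA. The annotation allows this for SNHG12, whose exons cover 4266 bases, and for SNHG1 (3756 bases), among others. How such reads were assigned is not given in the sources used here, so a host and its snoRNA need not be independent readings. In HEK293T SNRPD2KO, 2 of the 32 were higher and 4 lower, with a median log2 fold change of 0.04, where 9 of all 182 tested snoRNAs and scaRNAs were higher and 37 lower, with a median of -0.16. In PUS7KO the counts were 2 higher and 3 lower, with a median of -0.12, beside 9 and 36 of 182 and -0.20. In HuCCT1 1 of 27 was higher and 10 lower, with a median of -0.51, beside 4 and 29 of all 104 and a median of -0.37.

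Of the hosted RNAs whose host was called, 5 of 20 had the host's call in HEK293T SNRPD2KO, 5 of 21 in PUS7KO and 8 of 22 in HuCCT1, and 1, 0 and 1 hosted RNAs had the opposite call. SNORD96A had 39.1, 45.8 and 32.7 CPM in HEK293T SNRPD2KO, 38.4, 31.0 and 44.1 CPM in PUS7KO and 27.8, 22.1 and 22.5 CPM in Ctrl. It was higher in SNRPD2KO (0.69, SE 0.15, adjusted p = 0.00075) and in PUS7KO (0.64, adjusted p = 0.0016), as was its host RACK1, and neither group overlapped Ctrl. SNORD95, also in RACK1, passed neither in HEK293T SNRPD2KO (0.28, adjusted p = 0.54) nor in PUS7KO (0.41, adjusted p = 0.35). In HuCCT1, where RACK1 did not pass, SNORD95 was lower (-0.85, adjusted p = 0.015). SNORD26 of SNHG1 was lower in SNRPD2KO at 2.36, 1.87 and 3.07 CPM against 4.29, 4.57 and 3.75 CPM (-0.77, SE 0.30, adjusted p = 0.040), and in PUS7KO by the same amount (-0.77, adjusted p = 0.042). SNORD5 of TAF1D was at 1.18, 1.65 and 2.47 CPM in SNRPD2KO and 1.91, 1.84 and 2.60 CPM in PUS7KO, below all Ctrl libraries (5.57, 5.48 and 5.57 CPM), with log2 fold changes of -1.61 (adjusted p = 0.00012) and -1.39 (adjusted p = 0.00044). SNORA24 of SNHG8 was higher in PUS7KO (0.47, SE 0.19, adjusted p = 0.044). It did not pass in HEK293T SNRPD2KO (0.33, adjusted p = 0.15), where SNHG8 was higher too. In HuCCT1, where SNHG1 fell, SNORD26 did not pass (-0.36, adjusted p = 0.31).

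Several hosted RNAs had their host's call in one line or comparison and not in another. SNORA61 lies in SNHG12, which had fallen about 3-fold, and stood at 74.9, 89.6 and 77.9 CPM in HEK293T SNRPD2KO and 105, 67.0 and 55.1 CPM in Ctrl (0.09, SE 0.19, adjusted p = 0.70). In HuCCT1, where SNHG12 was lower, SNORA61 was lower too, at 4.99, 4.87 and 5.85 CPM against 8.51, 6.76 and 7.26 CPM (-0.52, SE 0.16, adjusted p = 0.015). In the same host, SNORA44 had 5, 8 and 0 counts in HEK293T SNRPD2KO against 15, 9 and 19 counts in Ctrl (-1.83, SE 0.69, adjusted p = 0.033). It passed the filter through Ctrl alone, so its place among the 4 lower in SNRPD2KO and the 3 lower in PUS7KO was favoured by the filter. The same holds for its place among the 5 with their host's call in each of these comparisons. SNORA74D of SNHG4 was higher in HEK293T SNRPD2KO, where its host was lower, at 52.4, 55.8 and 41.1 CPM against 42.8, 33.1 and 27.0 CPM (0.53, SE 0.17, adjusted p = 0.015), with overlap between the groups. In HuCCT1 it was lower, at 1.49, 3.09 and 3.05 CPM against 8.45, 8.71 and 8.98 CPM (-1.78, SE 0.24, adjusted p = 6.7e-05). SNORD12B of ZFAS1 was higher in HuCCT1 SNRPD2KO, at 3.78, 2.85 and 4.45 CPM against 2.16, 2.74 and 2.39 CPM (0.60, SE 0.23, adjusted p = 0.045), while ZFAS1 fell. Within TAF1D, SNORA40 had 3.43, 5.72 and 22.3 CPM in HEK293T SNRPD2KO, with the third library in the range of the Ctrl libraries (32.7, 21.8 and 35.2 CPM), and was lower (-1.45, SE 0.41, adjusted p = 0.0071). The other 6 of the 8 TAF1D snoRNAs, SNORD5 and SNORA40 apart, did not pass in HEK293T SNRPD2KO. In HuCCT1, where TAF1D fell too, SNORA18 (-1.28, adjusted p = 0.00033) and SNORA25 (-0.98, adjusted p = 0.01) were lower. SNORD6 (-1.91) and SNORA1 (-1.33) were also called lower there, on few reads. Both reached the filter's minimum in HuCCT1 Ctrl and in at most 1 SNRPD2KO library. Their places among the 10 lower in HuCCT1 and the 8 with their host's call were therefore favoured by the filter.

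**Figure D4:**
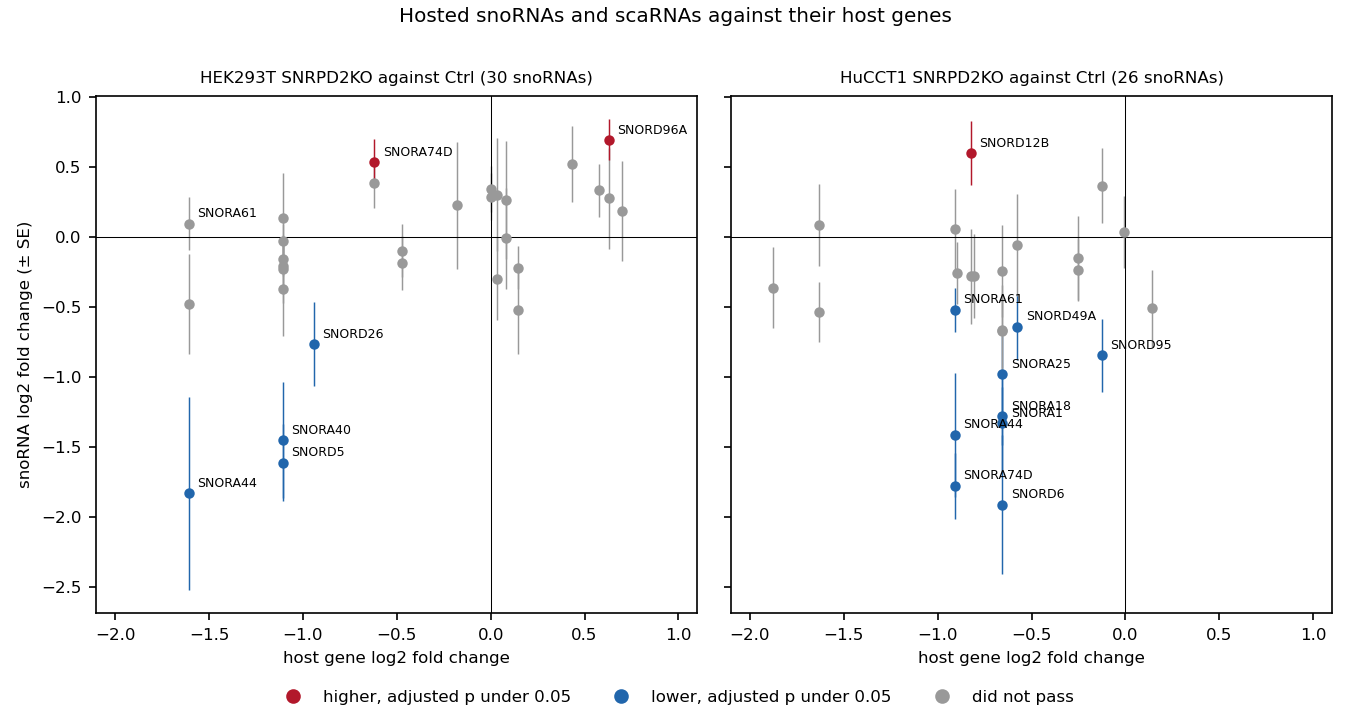
Log2 fold change of each hosted snoRNA or scaRNA (y axis, bars are standard errors) against that of its host gene (x axis) for SNRPD2KO against Ctrl, with 30 RNAs in HEK293T (left) and 26 in HuCCT1 (right) whose hosts were tested; colour gives the RNA's own call. SNORD96A is high with its host RACK1, and SNORA61 lies near 0 in HEK293T where its host SNHG12 is at -1.61.

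Related groups of genes were read from lists in the same fits. Of all genes tested, 26.9% were higher and 26.4% lower in HEK293T SNRPD2KO, 25.6% and 23.8% in PUS7KO, and 28.8% and 28.4% in HuCCT1 SNRPD2KO, with medians of 0.02, 0.01 and 0.00. The 49 tested protein-coding snoRNA hosts outside the members, many of them ribosomal protein genes, had 22 higher and 9 lower in HEK293T SNRPD2KO, 21 and 9 in PUS7KO, and 5 and 31 in HuCCT1 SNRPD2KO, with medians of 0.19, 0.15 and -0.25 (all genes 0.02, 0.01 and 0.00). In HEK293T SNRPD2KO RPS2 of the small ribosomal subunit (-3.00, SE 0.54, adjusted p = 0.00018), the initiation factor EIF5 (-1.38, adjusted p = 9.4e-08), CCAR1 (-1.16, adjusted p = 2.6e-07) and NOP58 (-1.15, adjusted p = 1.9e-07), a core protein of box C/D particles, fell. The SE of RPS2 was wide, so the size of its fall is uncertain. In HuCCT1 CCAR1 rose (0.99, adjusted p = 1.4e-07) and PPAN, a ribosome assembly factor, fell (-0.98, adjusted p = 1.3e-05). Of 22 other tested 5′ TOP messages 10 were higher and 1 lower in HEK293T SNRPD2KO, 12 higher and 0 lower in PUS7KO by edgeR (0 at an unadjusted p under 0.05, by DESeq2 or by limma voom), and 1 higher and 10 lower in HuCCT1. Their medians were 0.22, 0.23 and -0.19. EEF2 and TPT1 stand in this list and in that of the protein-coding hosts, so the lists are not separate sets. RPLP0, of the ribosomal stalk, led in HEK293T SNRPD2KO (1.03, SE 0.08, adjusted p = 6.4e-08), and EEF1D, a partner of EEF1B2 in the exchange factor, fell the most in HuCCT1 (-2.17, SE 0.82, adjusted p = 0.04). The SE of EEF1D was wide, so the size of its fall is uncertain. Values by library of RPS2 and EEF1D are not given here.

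The proteins that bind snoRNAs and help to assemble them had 7 higher and 6 lower of 17 in HEK293T SNRPD2KO, 7 and 5 in PUS7KO, and 3 and 13 in HuCCT1, with medians of 0.08, 0.06 and -0.49, where 53.3%, 49.4% and 57.2% of all genes were called either way. In HEK293T SNRPD2KO NOP10, a core protein of H/ACA particles, fell the most (-3.41, SE 0.89, adjusted p = 0.0041). The SE of NOP10 was wide, so the size of its fall is uncertain, and its values by library are not given here. In HuCCT1 the methyltransferase FBL (-1.07, adjusted p = 0.00011) and the H/ACA assembly factors NAF1 (-1.11, adjusted p = 5.5e-06) and SHQ1 (-0.93, adjusted p = 6.3e-06) fell, and PIH1D1 of the R2TP chaperone complex rose (1.31, adjusted p = 2.6e-07). PIH1D1 also rose in HEK293T SNRPD2KO (1.28, adjusted p = 2.3e-08). NOP56, NOP58 and DKC1 stand in this list and in that of the protein-coding hosts.

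Factors of NMD and of the exon junction complex had 9 of 16 lower in HEK293T SNRPD2KO and 12 of 16 in PUS7KO, with 0 higher in either by edgeR, at an unadjusted p under 0.05, by DESeq2 or by limma voom. Of all genes 26.4% and 23.8% were lower. The medians were -0.29 and -0.36, against 0.02 and 0.01 over all genes. In HuCCT1 5 were higher and 9 lower (median -0.25), where 28.8% and 28.4% of all genes were. UPF3B (-1.20, adjusted p = 3.8e-06) and the kinase SMG1 (-1.01, adjusted p = 2e-06) fell in HEK293T SNRPD2KO. In HuCCT1 UPF3A (1.33, adjusted p = 2.1e-06) and UPF2 (0.91, adjusted p = 4.4e-06) rose, and SMG8 (-1.03, adjusted p = 5.6e-07) fell.

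Endogenous NMD targets outside the members had 6 higher and 11 lower of 18 in HEK293T SNRPD2KO, 6 and 10 in PUS7KO, and 0 higher and 15 lower in HuCCT1 (0 higher at an unadjusted p under 0.05, by DESeq2 or by limma voom). Of all genes 26.9% and 26.4%, 25.6% and 23.8%, and 28.8% and 28.4% were higher and lower. The list's medians were -0.41, -0.36 and -0.52. Counts per gene hold all isoforms together, so these values are no direct measure of NMD. In HEK293T SNRPD2KO CHAC1 (2.11, adjusted p = 4e-09) and SLC7A11 (1.17, adjusted p = 2.1e-05), which act in glutathione breakdown and cystine uptake, rose, and the splicing factors SRSF6 (-1.50, adjusted p = 5e-09) and TRA2A (-1.22, adjusted p = 2e-07) fell. In HuCCT1 the asparagine synthetase gene ASNS (-2.49, adjusted p = 0.00014) and CHAC1 (-2.02, adjusted p = 1.3e-08) fell. The part that these groups had in the levels of the host genes was not tested.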

How the data were processed

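The authors deposited 1 table of whole-number counts per gene for each line, without normalization. Per the submitters' processing notes cutadapt 4.2, HISAT2 2.2.1 and RSEM were used with build hg38; their roles, the counting and its strand setting are not given in the sources used here. Per the labels' protocols the kit is stranded and depletes ribosomal RNA. Columns were matched to samples by the names in the labels.

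Each line was fitted alone in R 4.3.3 with edgeR 4.0.16 (TMM, minimum count 10, minimum total 15, quasi-likelihood F test), all 9 libraries together in HEK293T and 6 in HuCCT1. p-values are two-sided and adjusted by Benjamini and Hochberg over all tested genes, at 0.05. The interaction used the 12 SNRPD2KO and Ctrl libraries and the shared genes, with SNHG18 and SNHG9 left out since HEK293T holds no count of them. Standard errors derive from the F statistic. The biological coefficient of variation was 10.8% and 10.1%. Over pairs of libraries in a group the chi-square per degree of freedom was 3.70 to 14.8, so no library repeats another. Exon lengths and GC content come from GENCODE 29. The steps were tested on simulated counts.

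Members and lists were chosen with earlier results of these data known. Members that passed at a mean of at least 5 CPM in a group are given in full; at most 4 genes per list, those changed most, could be named. Alternatives were RLE and upper quartile factors, small RNAs left out, other filters, DESeq2 1.42.0, limma 3.58.1 voom, an adjusted p under 0.01, a replicate block, 2 groups alone in the fit, each library left out, and, added after the data were seen, a GC trend removed.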

Additional observations from a re-analysis of the deposited data

Results flagged for a closer look

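The SNRPD2KO fold change of 22 host genes differed between the lines by the interaction test in edgeR (adjusted p under 0.05). Values are HuCCT1 minus HEK293T on the log2 scale. Those lower in HuCCT1 were EEF1B2 (-5.45), SNHG20 (-2.17), SNHG11 (-1.59), SNHG30 (-1.34), SNHG17 (-1.21), SNHG15 (-1.21), SNHG1 (-0.98), SNHG10 (-0.98), SNHG16 (-0.93), ZFAS1 (-0.90), RACK1 (-0.80), GAS5 (-0.80), SNHG29 (-0.77), SNHG26 (-0.76), SNHG7 (-0.74), SNHG5 (-0.66), SNHG8 (-0.63), DANCR (-0.55) and SNHG3 (-0.30). Those higher were TAF1D (0.40), SNHG12 (0.66) and SNHG14 (2.83). The value of EEF1B2 was 0.36 without HuCCT1 Ctrl replicate 1. SNHG14 passed the filter on low counts through HEK293T Ctrl alone.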

How the results depend on the processing

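Under the alternatives run, called members kept direction and call in 220 of 235 cases for HEK293T SNRPD2KO, 247 of 269 for PUS7KO, 39 of 51 for SNRPD2KO against PUS7KO, 340 of 351 for HuCCT1 and 447 of 482 for the interaction. The sign turned in 2 of the interaction cases, TAF1D with the GC trend removed (-0.31) and EEF1B2 without HuCCT1 Ctrl replicate 1 (0.36). Among members that had not passed, removing the GC trend turned it for ZFAS1 (-0.20), SNHG26 (0.18), SNHG10 (-0.03) and SNHG3 (-0.04) in HEK293T SNRPD2KO, for GAS5 (0.01) and RACK1 (-0.02) in SNRPD2KO against PUS7KO, for SNHG6 in the interaction (-0.05) and for SNHG8 in HuCCT1 (0.057). Among HuCCT1 values given in the report it also turned for SNHG8 with no filter (0.011), without SNRPD2KO replicate 1 (0.074) and without Ctrl replicate 2 (0.010), and for SNHG25 without SNRPD2KO replicate 3 (-0.025); the cause was not tested. With 1 library left out, SNHG8 ran from -0.041 to 0.074, SNHG25 from -0.025 to 0.41 and the EEF1B2 interaction from -6.03 to 0.36. The count of members called in SNRPD2KO against PUS7KO, 3, was 1 at an adjusted p under 0.01 and 0 to 5 with 1 library left out. The same range was 11 to 14 for SNRPD2KO, 14 to 16 for PUS7KO, 20 to 24 for HuCCT1 and 18 to 23 for the interaction. With the GC trend removed the HEK293T SNRPD2KO calls were 6 higher and 12 lower, beside 6 and 8 in the main fit. The share of all genes called with the GC trend removed is not given here, so these counts cannot be set against it.

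Replicate numbers showed no sign of pairing. Same-numbered libraries of different groups correlated at -0.086 to 0.044 in HEK293T and -0.037 to -0.011 in HuCCT1. Differently numbered ones did so at -0.089 to 0.127 and -0.027 to 0.041. With 3 libraries per group these values cannot settle whether the samples were paired. With a replicate block 14, 15, 3, 23 and 21 members were called in SNRPD2KO, PUS7KO, SNRPD2KO against PUS7KO, HuCCT1 and the interaction. At these depths SNHG22, SNHG28, SNHG31 and SNHG32 could not be tested.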
